A study of Mus musculus with 89 samples.

Results

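Expression of 9 genes that encode transcription factors of the absorptive cells of the intestine, enterocytes, was followed from the crypt to the tip of the villus and across the cell types of the mouse jejunum. The genes were Cdx1, Cdx2, Hnf4a, Hnf4g, Gata4, Klf4, Klf5, Maf and Prdm1, taken by name, with earlier results of these data known. They are 9 genes of the 27538 gene symbols counted in clumps and of the 23379 counted in single cells, and all 9 were found among the 21817 symbols that both tables hold.

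The mice were untreated C57BL/6 males on regular chow, killed by cervical dislocation at 3 months of age, with no genetic change in any group. Clumps, which are small groups of cells that stay attached when the tissue is only partly dissociated, were sorted by DNA content from 5 mice. They filled 27 plates labelled 4n (pairs of cells, mice 1 to 5) and 14 plates labelled h4n (larger clumps, mice 1, 4 and 5). Fully dissociated cells came from 4 mice, on 41 plates labelled 3 months and 3 plates of mouse 2 labelled 4 months. Their plate labels name gates on Epcam, CD24 and CD45, with CD54 in place of CD45 on 3 plates of mouse 4, and 10 plates of mice 1 and 2 name none. Clumps and single cells both number their mice from 1, and the labels do not say whether the same number is the same animal. Every comparison is between zones or cell types of these animals. Not every mouse gave each sum of single cells, and the numbers are stated where they differ.

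Enterocytes arise from dividing cells in the crypt, move up the villus over a few days and are shed at the tip, and their gene programme changes as they move. CDX1 and CDX2 are homeodomain factors that give the intestinal epithelium its posterior identity, HNF4A and HNF4G are nuclear receptors that act on genes for the brush border and lipid handling, and GATA4 sets the proximal against the distal small intestine. KLF5 is known for crypt cell proliferation and KLF4 for exit from the cell cycle and goblet cell maturation. MAF is known for nutrient uptake genes of villus enterocytes, and PRDM1 (BLIMP1) is a repressor known from plasma cells and from the developing gut epithelium.

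Each clump was placed by enterocyte landmark genes, none of which is among the 9, and the crypt took 3251 clumps, the mid villus 1821 and the tip 811. The unique molecular identifiers (UMIs, 1 per captured mRNA molecule) were summed per mouse and zone, so that the mouse is the replicate, and a level is given as UMIs per 1000000 UMIs of that sum (CPM). The sums held 346613 to 18868631 UMIs in the crypt, 197189 to 2764557 in the mid villus and 76801 to 757892 at the tip, and larger clumps made up 66.2% of crypt, 20.8% of mid-villus and 14.1% of tip clumps. Such a sum holds whole clumps, and fewer cells of a type and less RNA per cell cannot be told apart in it. The summed enterocyte markers ranged from 3028 to 11278 CPM in the crypt and from 54778 to 96218 CPM at the tip, and those of stem and dividing cells from 548 to 1386 and from 69.9 to 351 CPM. The 10 most abundant genes took 10.6 to 38.8% of UMIs in the crypt and 24.3 to 48.5% at the tip. Changes were tested on the edgeR scale (TMM factors, log2), with ± for the standard error. On that scale the median of all genes moved by -0.07 from crypt to tip, against -0.40 with the size factors of DESeq2 and -0.49 with total UMIs alone. Of the genes called between crypt and tip 45.1% were higher at the tip with TMM factors, 33.5% with DESeq2 size factors and 29.6% with total UMIs alone. Between crypt and mid villus the shares were 47.5, 29.5 and 34.8%, and between mid villus and tip 43.7, 44.3 and 26.0%.

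For 4 of the 9 genes (Cdx2, Hnf4a, Klf4 and Prdm1) a RefSeq promoter window was at hand (GRCm38.p6, 250 bases before to 50 bases after a transcription start). Hnf4a has 2 windows, which are not shown. The windows of Klf4 and Prdm1, which had their highest levels at the tip in both assays, are shown beside that of Cdx2, whose change from crypt to tip did not pass in all clumps or in single cells with TMM factors. All lie on the minus strand and are written 5′ to 3′, Klf4 at chr4:55532426-55532725, Cdx2 at chr5:147307200-147307499 and Prdm1 at chr10:44458699-44458998, and capitals mark GGGCGG or its reverse complement CCGCCC (the GC box).
Klf4: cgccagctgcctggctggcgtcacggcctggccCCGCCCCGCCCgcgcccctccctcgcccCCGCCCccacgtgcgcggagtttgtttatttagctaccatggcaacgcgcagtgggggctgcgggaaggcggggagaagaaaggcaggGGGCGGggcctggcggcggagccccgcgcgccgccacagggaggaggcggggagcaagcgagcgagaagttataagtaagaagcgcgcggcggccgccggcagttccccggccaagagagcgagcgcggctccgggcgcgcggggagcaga
Cdx2: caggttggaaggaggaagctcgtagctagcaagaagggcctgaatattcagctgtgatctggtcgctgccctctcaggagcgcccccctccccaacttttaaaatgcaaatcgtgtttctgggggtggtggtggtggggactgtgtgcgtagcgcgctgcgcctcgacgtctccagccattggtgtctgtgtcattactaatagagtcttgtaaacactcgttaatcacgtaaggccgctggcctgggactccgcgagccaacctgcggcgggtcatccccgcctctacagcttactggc
Prdm1: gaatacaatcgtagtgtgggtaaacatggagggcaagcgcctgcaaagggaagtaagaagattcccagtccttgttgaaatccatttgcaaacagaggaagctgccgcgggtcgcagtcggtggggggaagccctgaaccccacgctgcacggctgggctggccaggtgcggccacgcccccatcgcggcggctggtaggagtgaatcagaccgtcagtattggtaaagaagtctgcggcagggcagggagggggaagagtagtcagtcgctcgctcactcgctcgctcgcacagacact
The Klf4 window was 74.3% G and C and held 4 matches to the GC box, the first 2 of which overlap. Those of Cdx2 (57.3%) and Prdm1 (59.7%) held none, and 35.7% of 32851 windows held at least 1. Of the other short motifs looked for on both strands, GATAA (GATA factors, in 25.4% of windows) was in none of the 3. CACCC (Kruppel-like factors, 57.5%) was in Cdx2 only, TTTAT (CDX, 40% of windows) and GAAAG (PRDM1 core, 57.3%) were in Klf4 only, and CAAAG (HNF4 core, 53.9%) was in Prdm1 only. These matches describe the letters of the windows and say nothing of binding.

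From crypt to villus tip, 5 of the 8 members that could be tested in clumps changed, Klf4, Maf and Hnf4a upwards and Cdx1 and Klf5 downwards, at an adjusted p under 0.05 (edgeR's quasi-likelihood test, Benjamini-Hochberg adjustment over all genes tested). Of all 6984 genes tested 54.4% passed, 24.5% higher and 29.9% lower at the tip, so that 5 of 8 is a share near the background. In 3 members, Cdx1, Klf4 and Klf5, the 5 tip values did not overlap the 5 crypt values, which was so for 30.2% of all genes. From crypt to mid villus 4 of 8 passed (Klf4, Maf and Hnf4g higher, Cdx1 lower), where 42.5% of all genes did, 20.2% higher and 22.3% lower, with no overlap in 2 (Cdx1 and Klf4), against 24.6% of all genes. From mid villus to tip 2 of 8 passed, Klf4 and Hnf4a, both higher, where 14.7% of all genes did, 6.44% higher and 8.3% lower, and no member was free of overlap (7.93% of all genes). Prdm1 was under the filter on low counts in clumps and has no value in these tests.

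**Figure D1:**
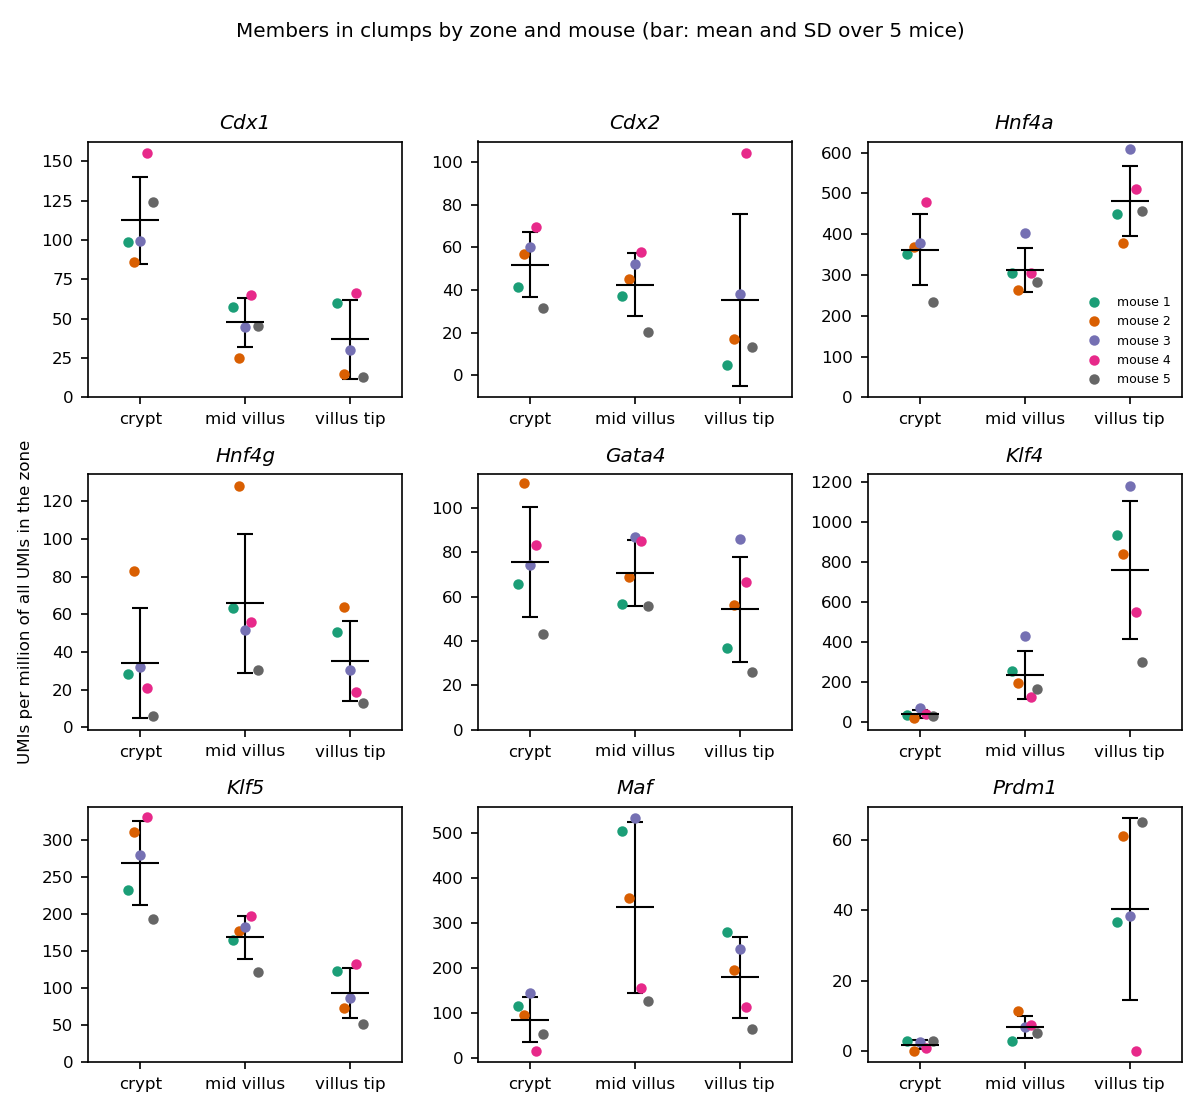
Levels of the 9 transcription factors in clumps, in CPM of the zone (y axis, a separate linear scale per gene), for crypt, mid villus and villus tip (x axis), with 1 point per mouse and bars for the mean and SD over 5 mice. Klf4 rises in each mouse to 299 to 1182 at the tip, Klf5 and Cdx1 fall, and Maf is highest in the mid villus in each mouse.

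Of the caudal-type homeobox genes, Cdx1 fell from crypt to villus and the change of Cdx2 did not pass between any 2 zones. Cdx1, on chromosome 18, was at 98.5, 85.7, 99.4, 155 and 124 CPM in the crypt clumps of mice 1 to 5. Mid-villus levels of Cdx1 were 57.6, 24.8, 44.9, 65.2 and 45.6 CPM, and its tip levels were 59.7, 14.7, 30.3, 66.3 and 13.0 CPM. All 5 crypt values were above all mid-villus and all tip values, and mice 2 and 5 were lowest at the tip. The edgeR log2 change of Cdx1 was -1.39 ± 0.38 (adjusted p = 0.00416) from crypt to tip, a 2.62-fold fall, and -1.13 ± 0.33 (adjusted p = 0.00875) from crypt to mid villus, each lower in 5 of 5 mice. It kept direction and call under each of the 16 alternatives run for each of these 2 comparisons. From mid villus to tip the log2 change was -0.26 ± 0.39 (adjusted p = 0.717), with a 95% interval of -1.08 to 0.56.

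Cdx2 (chr5:147300805-147307270, GRCm38), the paralogue known as the main determinant of intestinal identity, was at 41.3, 56.7, 60.3, 69.8 and 31.7 CPM in the crypt. Mid-villus levels of Cdx2 were 37.1, 45.1, 52.1, 57.9 and 20.3 CPM, and its tip levels were 4.59, 17.1, 38.3, 104 and 13.0 CPM. The tip values were spread more widely than those of either other zone, from 1 UMI in mice 1 and 5 to 29 UMIs in mouse 3, and they overlapped both. Its edgeR log2 change from crypt to tip was -0.39 ± 0.41 (adjusted p = 0.448), with a 95% interval of -1.25 to 0.48, and a change within it was not detectable at this depth. It passed under 1 of 16 alternatives, in pairs only, with -1.06 (adjusted p = 0.0413). From crypt to mid villus Cdx2 was lower in 5 of 5 mice, with an edgeR log2 change of -0.10 ± 0.35 (adjusted p = 0.846).

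Of the nuclear receptor genes, Hnf4a passed as higher at the tip and Hnf4g as higher in the mid villus. Hnf4a (chr2:163506808-163572910) was at 351, 368, 377, 479 and 234 CPM in the crypt. Mid-villus levels of Hnf4a were 304, 264, 403, 304 and 284 CPM, and its tip levels were 450.1, 377, 608, 512 and 456 CPM. Each mouse had its highest Hnf4a level at the tip, although the zones overlapped. On the edgeR scale Hnf4a rose by 0.77 ± 0.24 (adjusted p = 0.00928) from crypt to tip and by 0.79 ± 0.24 (adjusted p = 0.0291) from mid villus to tip. Crypt and mid villus differed by -0.02 ± 0.23 (adjusted p = 0.956). The tip call was lost with DESeq2 size factors, 0.49 (adjusted p = 0.0943), with total UMIs alone, 0.39 (adjusted p = 0.277), and without mouse 3, 0.71 (adjusted p = 0.0558). It was also lost with no filter, in pairs only, in clumps over 1000 UMIs and with zones by the highest mean, and held under 10 of 17 alternatives, all 17 of them above 0. The rise from mid villus was lost without mouse 1, 0.93 (adjusted p = 0.0697), without mouse 2, 0.90 (adjusted p = 0.0754), and without mouse 3, 0.82 (adjusted p = 0.0997). It was lost under 10 of 17 alternatives in all, with values of 0.58 to 1.01. An antisense transcript, Hnf4aos, overlaps Hnf4a on chromosome 2, and the counting used the strand of the reads.

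Hnf4g (chr3:3508030-3658052), the paralogue that in the intestine shares targets with Hnf4a, was at 28.2, 83.2, 31.9, 21.1 and 5.77 CPM in the crypt. Mid-villus levels of Hnf4g were 63.1, 128, 51.7, 56.1 and 30.4 CPM, and its tip levels were 50.5, 63.7, 30.3, 19.0 and 13.0 CPM. Mouse 2 was the highest in each zone and mouse 5 the lowest, and within each of the 5 mice the mid villus was above both the crypt and the tip. The edgeR log2 rise from crypt to mid villus was 1.22 ± 0.43 (adjusted p = 0.028). That call was lost with DESeq2 size factors, 0.90 (adjusted p = 0.0931), and with total UMIs alone, 0.96 (adjusted p = 0.0993). It was also lost when mouse 1, 3 or 4 was left out, 1.05 (adjusted p = 0.141), 1.27 (adjusted p = 0.0711) and 0.93 (adjusted p = 0.121). Other settings that ended it were pairs only, 0.95 (adjusted p = 0.0908), clumps over 1000 UMIs, 1.15 (adjusted p = 0.0572), few UMIs of other cell types, 1.06 (adjusted p = 0.0683), and DESeq2, 0.89 (adjusted p = 0.177). It was thus lost under 9 of 16 alternatives, all with a value above 0. From crypt to tip its log2 change was 0.67 ± 0.49 (adjusted p = 0.265), and from mid villus to tip -0.55 ± 0.49 (adjusted p = 0.49).

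Gata4 (chr14:63198922-63271692), the zinc finger factor of the proximal small intestine, did not pass the test in any of the comparisons between zones. It was at 65.6, 111, 74.1, 83.2 and 43.3 CPM in the crypt. Mid-villus levels of Gata4 were 56.6, 68.7, 86.8, 85.1 and 55.8 CPM, and its tip levels were 36.7, 56.3, 85.8, 66.3 and 26.0 CPM, all zones overlapping and mouse 5 the lowest in each. The tip was below the mid villus in 5 of 5 mice, with an edgeR log2 change of -0.09 ± 0.28 (SE; adjusted p = 0.878), and below the crypt in 4 of 5. The edgeR log2 change from crypt to tip was 0.00 ± 0.27 (adjusted p = 0.992), with a 95% interval of -0.56 to 0.56. Its sign was below 0 with DESeq2 size factors (-0.32) and with total UMIs alone (-0.41). Fabp6, a bile acid binding protein gene known from the ileum, differed between mice. It was at 117, 6.70, 406, 4.30 and 419 CPM over all clumps of mice 1 to 5. Gata4 over all clumps of the same mice was at 61.4, 82.3, 81.0, 83.1 and 45.1 CPM. In the single enterocyte-like cells, Fabp6 had 2 UMIs in all. Its relation to the levels of Gata4 was not tested.

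The Kruppel-like factors moved in opposite directions along the axis. Klf4 (chr4:55527143-55532466) was at 37.0, 20.2, 72.4, 39.2 and 31.7 CPM in the crypt. Mid-villus levels of Klf4 were 258, 196, 431, 129 and 167 CPM, and its tip levels were 937, 840.1, 1182, 549.7 and 299 CPM. Crypt, mid villus and tip followed each other in this order in 5 of 5 mice, the crypt overlapped neither of the other zones, and mouse 3 was the highest in each zone. Its edgeR log2 rise was 4.61 ± 0.43 (adjusted p = 1.15e-07) from crypt to tip, or 24.4-fold. It was 2.72 ± 0.40 (adjusted p = 2.53e-05) from crypt to mid villus and 1.89 ± 0.38 (adjusted p = 0.00297) from mid villus to tip. Of the members with a value in these tests, which leaves out Prdm1, Klf4 alone passed in all 3 comparisons. It did so under each of the 17 alternatives of each, in which the rise to the tip lay between 4.21 and 5.09.

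Goblet cells express Klf4 too, and goblet markers were summed in the same clumps. The summed level of the 10 markers was 2559 to 5380.0 CPM in the crypt (median 3006), 3299 to 15462 CPM in the mid villus and 7174 to 34779.6 CPM at the tip (median 18215), with none of the 10 at 0. In clumps with few UMIs of other cell types (at most 0.5% of UMIs from goblet, enteroendocrine, tuft, Paneth and lymphocyte markers) the edgeR log2 rise of Klf4 from crypt to tip was 5.09. The 9 early stress genes had summed levels of 211 to 1063 CPM in the crypt, 383 to 653 CPM in the mid villus and 729.7 to 1163 CPM at the tip, and the ranges of crypt and tip overlapped. The part of goblet markers and stress genes in the result was not tested.

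Klf5 (chr14:99298691-99315036) was at 232, 311, 279.6, 332 and 193 CPM in the crypt. Mid-villus levels of Klf5 were 165, 177, 183, 197 and 122 CPM, and its tip levels were 124, 73.5, 87.1, 133 and 52.1 CPM. It was lower at each step in 5 of 5 mice, and no tip value reached a crypt value. Its edgeR log2 fall from crypt to tip was -1.18 ± 0.24 (adjusted p = 0.000351), or 2.26-fold, and it passed under each of 17 alternatives. The smaller steps did not pass on their own, with -0.50 ± 0.22 (adjusted p = 0.0774) from crypt to mid villus and -0.68 ± 0.24 (adjusted p = 0.0602) from mid villus to tip. With the mouse as a replicate block both passed, at -0.49 (adjusted p = 0.0206) and -0.67 (adjusted p = 0.0181), as they did with DESeq2, at -0.82 (adjusted p = 8.81e-06) and -0.71 (adjusted p = 0.00975). The step to the mid villus also passed with DESeq2 size factors, -0.81 (adjusted p = 0.00618), without mouse 4, -0.64 (adjusted p = 0.0392), with few UMIs of other cell types and with zones by the highest mean.

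Maf (chr8:115682942-115707794), a basic leucine zipper factor, had its highest level in the mid villus. It was at 115, 97.0, 145, 16.9 and 54.8 CPM in the crypt. Mid-villus levels of Maf were 504, 355, 532, 156 and 127 CPM, and its tip levels were 280.2, 196, 243, 114 and 65.1 CPM. Within each of the 5 mice the mid villus was the highest and the crypt the lowest, but mice 4 and 5 were below mice 1 to 3 in every zone, so that the zones overlapped. Maf rose by 2.14 ± 0.47 (adjusted p = 0.00112) on the edgeR log2 scale from crypt to mid villus and by 1.51 ± 0.48 (adjusted p = 0.0116) from crypt to tip. The second call was lost with total UMIs alone, 1.09 (adjusted p = 0.0749), and in pairs only, 0.88 (adjusted p = 0.174). From mid villus to tip the log2 change was -0.63 ± 0.47 (adjusted p = 0.4), and with the mouse as a replicate block Maf fell, at -0.69 (adjusted p = 0.0254).

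Macrophages also express Maf. The summed level of 7 macrophage markers was 31.5 to 415 CPM in the crypt (median 195, C1qa at 0), 9.01 to 50.7 CPM in the mid villus (C1qa, C1qb and C1qc at 0) and 0 to 28.4 CPM at the tip (C1qa, Csf1r and Cd68 at 0). The ranges of crypt and mid villus overlapped, and the part of these cells in the level of Maf was not tested.

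Prdm1 (chr10:44437177-44528501) had the fewest UMIs of the 9 genes over all zones, with 7, 0, 7, 13 and 1 UMIs in the crypt of mice 1 to 5. The mid villus held 3, 10, 19, 4 and 1 and the tip 8, 25, 29, 0 and 5 UMIs. As levels these were 2.78, 0, 2.43, 0.689 and 2.89 CPM in the crypt. Mid-villus levels of Prdm1 were 2.79, 11.3, 6.87, 7.24 and 5.07 CPM, and its tip levels were 36.7, 61.2, 38.3, 0 and 65.1 CPM. In 4 of 5 mice the tip was far above the other zones, while mouse 4 had 0 UMIs among 105517 at the tip, which allows a level of up to 28.4 CPM (3 counts, counting error only). With no filter on low counts the edgeR log2 rise from crypt to tip was 5.08 (adjusted p = 7.7e-08), and with DESeq2 4.81 (adjusted p = 4.66e-11). Prdm1 was higher in the mid villus than in the crypt in 5 of 5 mice. That rise was 2.32 (adjusted p = 0.00706) with no filter in edgeR and 1.93 (adjusted p = 0.0262) with DESeq2. From mid villus to tip the values were 2.76 (adjusted p = 0.00255) and 2.88 (adjusted p = 0.000288), in the same order. Prdm1 is also a gene of plasma cells and T cells. The summed level of 5 plasma cell markers was 0 to 329 CPM in the crypt, 0 to 47.0 CPM in the mid villus (Mzb1 at 0) and 0 to 131 CPM at the tip (Mzb1 and Iglc1 at 0), with a median of 0 at the tip. That of 15 lymphocyte markers was 1.19 to 360.4 CPM in the crypt, 7.24 to 20.3 CPM in the mid villus and 0 to 52.1 CPM at the tip, where Cd3e, Cd3g, Cd3d, Ptprc, Itgae, Trdc and Klrd1 were at 0. Their part in the level of Prdm1 was not tested.

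A finer axis was drawn by ordering all 5883 clumps by the share of tip landmark UMIs among tip plus crypt landmark UMIs and cutting them into 5 bins of equal number. They ran from the crypt (bin 1, median share 0.019) to the tip (bin 5, median share 0.963). By their means Klf4, Prdm1 and Hnf4a were highest in the last bin and Maf and Hnf4g in the bin before it. Klf4 had a mean of 20.5, 31.8, 66.2, 247 and 695 CPM in bins 1 to 5, with its highest value in bin 5 in 5 of 5 mice. Maf went from 13.8 CPM in bin 1 through 193 CPM in bin 3 to 342 CPM in bin 4 and 242 CPM in bin 5, with bin 4 the highest in 5 of 5 mice. In bin 4 Maf was at 499, 350.1, 566, 153 and 140.2 CPM in mice 1 to 5, and in bin 1 at 15.4, 0, 15.6, 5.40 and 32.5 CPM, so that these 2 bins did not overlap. Hnf4g had its highest level in bin 4 in 5 of 5 mice as well, with a mean of 72.5 CPM against 12.0 CPM in bin 1 and 39.2 CPM in bin 5.

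Prdm1 had means of 1.27, 0.729, 3.87 and 4.10 CPM in bins 1 to 4. It was at 31.8 CPM in bin 5, where 82 of its UMIs lay, and bin 5 was its highest in 4 of 5 mice. Its largest step, from bin 4 to bin 5, can be set beside the course of Klf4, which was already at 247 CPM in bin 4. Cdx1 was at 149 and 130.0 CPM in the 2 crypt-most bins and at 60.2, 45.6 and 44.6 CPM in the rest, below bin 1 in bin 5 in 5 of 5 mice. Klf5 was not highest at the crypt end: its means were 226, 268, 269.6, 175 and 106 CPM, with bin 3 the highest in 3 of 5 mice. The highest and lowest of the 5 bin means were 1.49-fold apart for Hnf4a, 1.59-fold for Cdx2 and 1.61-fold for Gata4, against 33.9-fold for Klf4 and 24.8-fold for Maf. The bins are a description and were not tested.

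**Figure D2:**
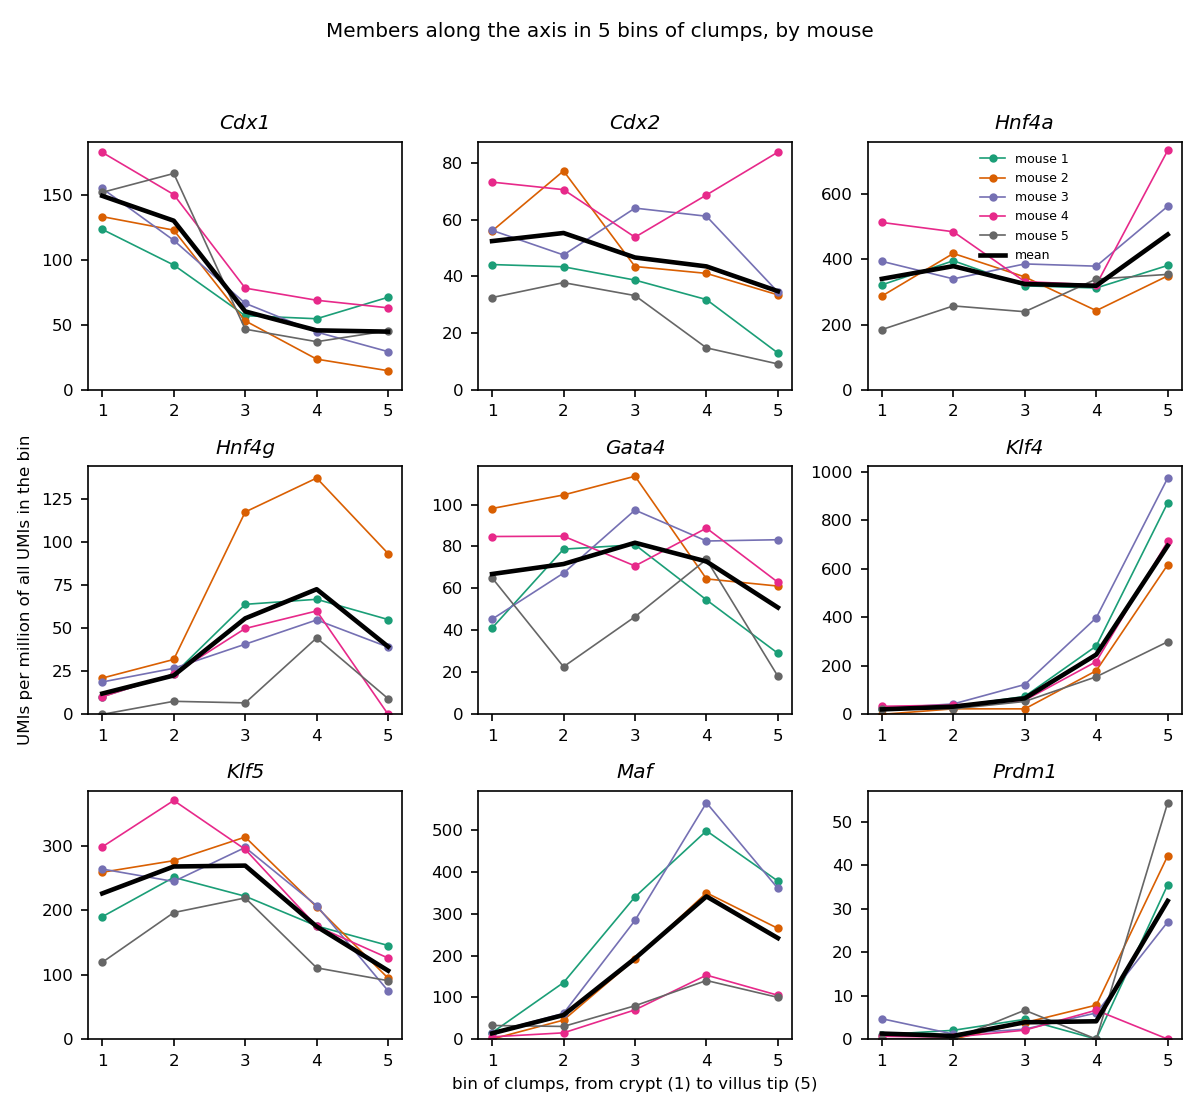
Mean level of each transcription factor in 5 bins of clumps ordered from crypt (bin 1) to villus tip (bin 5), in CPM of the bin, with thin lines for the 5 mice and a thick line for their mean. Maf and Hnf4g turn down after bin 4, whereas Klf4 and Prdm1 are highest in bin 5.

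Ratios of UMIs between 2 related genes of the same sum do not depend on how the zones are scaled, and were compared over mice by an exact permutation test (two-sided, 6 comparisons, smallest p possible 0.00794). Only the change of a ratio is read, since the genes differ in length and capture. The log2 ratio of Klf4 to Klf5 was -2.64, -3.87, -1.94, -3.08 and -2.50 in the crypt of mice 1 to 5. In the same mice it was 0.64, 0.15, 1.23, -0.61 and 0.44 in mid-villus clumps and 2.87, 3.47, 3.74, 1.98 and 2.26 in tip clumps. No zone overlapped the crypt. The mean difference was 5.67 at the tip (51.0-fold, exact permutation p = 0.00794, adjusted p = 0.0238, higher in 5 of 5 mice) and 3.18 in the mid villus (9.05-fold, exact permutation p = 0.00794, adjusted p = 0.0238).

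The log2 ratio of Hnf4g to Hnf4a was -3.62, -2.13, -3.55, -4.50 and -4.77 in the crypt. In the same mice it was -2.25, -1.03, -2.95, -2.40 and -3.03 in mid-villus clumps and -3.04, -2.52, -4.27, -4.20 and -4.17 in tip clumps. It was higher in the mid villus than in the crypt in 5 of 5 mice, by 1.38 on average, but did not pass the test (exact permutation p = 0.0556, adjusted p = 0.0833). Tip and crypt differed by 0.07 (exact permutation p = 0.929). The log2 ratio of Cdx1 to Cdx2 was 1.25, 0.58, 0.72, 1.15 and 1.87 in the crypt. In the same mice it was 0.62, -0.83, -0.21, 0.17 and 1.00 in mid-villus clumps and 2.81, -0.19, -0.32, -0.58 and 0.00 in tip clumps. It was lower in the mid villus in 5 of 5 mice, with a mean difference of -0.97 (exact permutation p = 0.0397, adjusted p = 0.0794). At the tip it was lower in 4 of 5, with a mean difference of -0.77 (exact permutation p = 0.294), and mouse 1 was far above the others on 1 UMI of Cdx2. Without mouse 1 the difference was -1.36 (exact permutation p = 0.0286, the smallest possible with that many mice, adjusted p = 0.0571). In pairs alone both mid-villus differences passed, with -1.21 for Cdx1 to Cdx2 (adjusted p = 0.0317, exact permutation test) and 1.89 for Hnf4g to Hnf4a (adjusted p = 0.0476, exact permutation test).

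**Figure D3:**
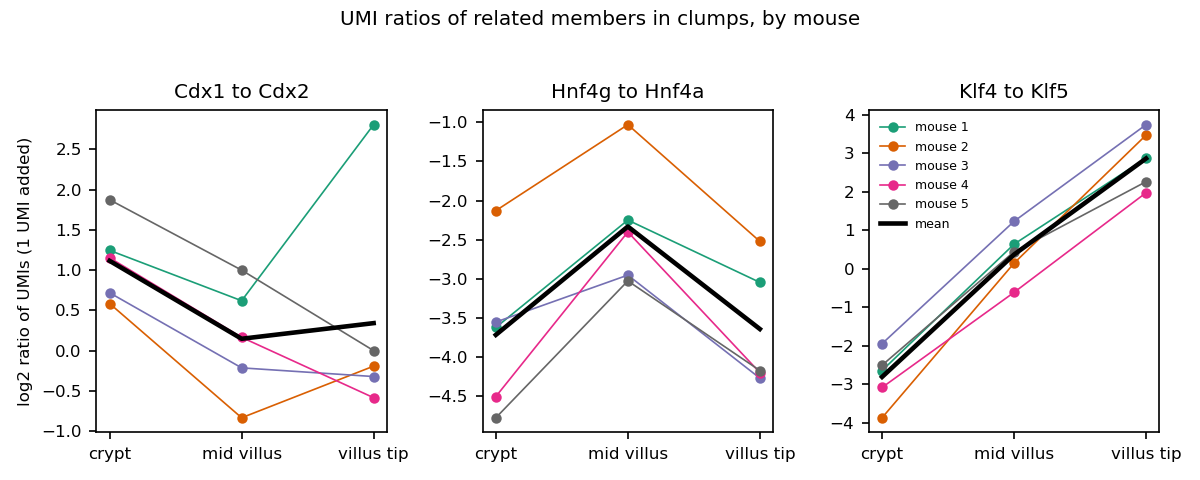
Log2 ratio of UMIs of related transcription factors (y axis, 1 UMI added to each) in crypt, mid villus and villus tip clumps, 1 coloured line per mouse and the mean of 5 mice in black. Klf4 to Klf5 climbs in each mouse, Hnf4g to Hnf4a peaks in the mid villus in each mouse, and Cdx1 to Cdx2 is lower in the mid villus than in the crypt in each mouse.

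The same axis was read in 2466 single cells of an enterocyte-like cluster, found by clustering without the 9 genes, of which 319 were crypt cells, 730 mid-villus cells and 1411 tip cells. The cluster was led by Apoa4, Ada, Apoa1 and Apob, which are enterocyte genes, and its median cell held 2864.5 UMIs. Crypt sums came from mice 2, 3 and 4 alone, and sums held 127195 to 2165533 UMIs. From crypt to tip 6 of 9 members changed, Klf4, Prdm1, Hnf4a and Maf upwards and Cdx1 and Klf5 downwards, where 58.8% of 4621 genes did, 29.5% higher and 29.3% lower. Prdm1 passed the filter on low counts through its tip sums alone, so its call supports nothing. Cdx1 would not have passed it without its crypt sums. From crypt to mid villus 3 of 9 changed, Klf4 and Maf upwards and Cdx1 downwards, where 29.0% did, 11.3% higher and 17.6% lower. The 10 most abundant genes held 42.8 to 55.8% of UMIs in the crypt and 63.3 to 76.1% at the tip. The median of all genes moved by 0.11 from crypt to tip with TMM factors, -0.06 with DESeq2 size factors and -0.87 with total UMIs alone. Of the calls between crypt and tip 50.2% were higher at the tip with TMM factors and 16.7% with total UMIs alone, and between crypt and mid villus 39.2 and 24.7%.

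Klf4 was at 68.9, 15.7 and 41.3 CPM in the crypt cells of mice 2 to 4. Mid-villus levels of Klf4 were 252, 117, 87.2 and 193 CPM, and its tip levels were 356, 521, 277 and 433 CPM, each in mice 1 to 4. All tip values were above all mid-villus values, and these above all crypt values. Its edgeR log2 rise to the tip was 4.40 ± 0.45 (adjusted p = 1.33e-07) and to the mid villus 2.26 ± 0.45 (adjusted p = 0.00057), and it stayed at 3.38 to the tip with total UMIs alone. Beside it, goblet markers in these cells had summed levels of 116 to 619.8 CPM in the crypt and 81.1 to 680.0 CPM at the tip, all below those of the clumps. Early stress genes summed to 220.4 to 334 CPM in the crypt, 118 to 338 CPM in the mid villus and 377 to 718 CPM at the tip. Unlike in clumps, the ranges of crypt and tip did not overlap, and their part in the level of Klf4 was not tested. Klf5 was at 220.4, 139 and 233 CPM in the crypt. Mid-villus levels of Klf5 were 102, 122, 68.5 and 157 CPM, and its tip levels were 29.6, 65.0, 53.7 and 42.1 CPM, where no value reached a crypt value. Klf5 changed by -1.12 ± 0.28 (adjusted p = 0.00219) on the edgeR log2 scale to the tip, a call lost with cells chosen by low marker sums, -0.79 (adjusted p = 0.0948). Its mid-villus step of -0.62 ± 0.28 (adjusted p = 0.111) passed with the mouse as a replicate block, -0.62 (adjusted p = 0.0177), and under no other of its 12 alternatives. To the mid villus the other members did not pass, with edgeR log2 changes of -0.26 ± 0.36 (adjusted p = 0.673) for Cdx2, -0.19 ± 0.25 (adjusted p = 0.617) for Hnf4a and 0.43 ± 0.26 (adjusted p = 0.242) for Hnf4g. They were 0.44 ± 0.38 (adjusted p = 0.435) for Gata4 and 1.87 ± 1.34 (adjusted p = 0.336) for Prdm1. With cells chosen by low marker sums Hnf4g passed, 0.98 (adjusted p = 0.0499).

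Prdm1 counted 1 UMI in all crypt cells, 9 in the mid villus and 125 at the tip. At the tip it was at 25.9, 24.2, 24.2 and 39.1 CPM in mice 1 to 4, with mouse 4 apart from the others. In the mid villus mouse 1 was at 31.4 CPM on 4 UMIs and mice 2 to 4 were at 3.17 CPM or below. Lymphocyte markers summed to less at the tip of these cells, with 228 to 286 CPM in the crypt and 7.85 to 222 CPM at the tip. Plasma cell markers ranged from 20.7 to 1006 CPM in the crypt and from 2.77 to 1146 CPM at the tip.

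Maf in single cells was at 186, 88.4 and 150.3 CPM in the crypt. Mid-villus levels of Maf were 189, 356, 208 and 388 CPM, and its tip levels were 92.4, 190.4, 128 and 133 CPM, with the mid villus above the tip in 4 of 4 mice and above the crypt in the 3 mice that have a crypt sum. Its edgeR log2 rise to the mid villus was 1.25 ± 0.31 (adjusted p = 0.00365), lost without mouse 3, 0.98 (adjusted p = 0.0687), and with total UMIs alone, 1.04 (adjusted p = 0.0513). To the tip it rose by 0.92 ± 0.30 (adjusted p = 0.0141), a call lost without mouse 3, 0.51 (adjusted p = 0.261). On total UMIs alone the change was -0.07 (adjusted p = 0.893), so the order of crypt and tip differs between scalings. The 8 macrophage markers summed to 11.8 to 20.7 CPM in the crypt, 0 to 12.5 in the mid villus and 0.462 to 10.4 CPM at the tip, with C1qa and Adgre1 at 0 in every zone.

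Cdx1 in single cells was at 55.1, 57.0 and 82.7 CPM in the crypt. Mid-villus levels of Cdx1 were 15.7, 19.0, 16.6 and 45.0 CPM, and its tip levels were 2.31, 7.56, 5.19 and 7.01 CPM, and no 2 zones overlapped. Its edgeR log2 change was -1.21 ± 0.36 (adjusted p = 0.0152) to the mid villus, and -2.73 ± 0.41 (adjusted p = 1.32e-05) to the tip, a 6.65-fold fall. Cdx1 would have missed the filter on low counts without its crypt sums, where it is highest. The filtered calls thus support nothing on their own. With no filter edgeR gave a change to the tip of -2.58 (adjusted p = 4.4e-07). The mid-villus call was lost without mouse 3, -1.23 (adjusted p = 0.102), with no filter, -0.90 (adjusted p = 0.18), and with cells chosen by low marker sums, -0.80 (adjusted p = 0.146). Cdx2 was at 48.2, 27.5 and 33.8 CPM in the crypt. Mid-villus levels of Cdx2 were 23.6, 28.5, 22.8 and 25 CPM, and its tip levels were 9.70, 12.1, 17.3 and 20.0 CPM. These Cdx2 levels did not overlap between crypt and tip, yet the edgeR log2 change was -0.30 ± 0.36 (adjusted p = 0.493), and it passed on total UMIs alone, -1.29 (adjusted p = 0.0123).

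The levels of Hnf4a in single cells were 165, 175 and 177 CPM in the crypt. Mid-villus levels of Hnf4a were 165, 114, 110.1 and 160.0 CPM, and its tip levels were 149, 186, 125 and 219 CPM, with crypt and tip overlapping, and the means of these ends were 172 and 169.6 CPM. On the edgeR scale Hnf4a rose by 0.91 ± 0.25 (adjusted p = 0.00396) to the tip, which was lost without mouse 2, 0.75 (adjusted p = 0.07), and with total UMIs alone the change was -0.07 (adjusted p = 0.875). Hnf4g was at 68.9, 92.3 and 94.0 CPM in the crypt. Mid-villus levels of Hnf4g were 110.1, 93.5, 99.7 and 115 CPM, and its tip levels were 38.3, 66.5, 57.1 and 49.1 CPM, with the mid villus above the tip in 4 of 4 mice, above the crypt in 3 of 3, and no overlap of crypt and tip. To the tip its edgeR log2 change was 0.20 ± 0.26 (adjusted p = 0.528), while on total UMIs alone it fell, -0.78 (adjusted p = 0.047). Gata4, at 13.8, 58.9 and 30.1 CPM in the crypt and 11.5, 27.2, 22.5 and 37.1 CPM at the tip, overlapped between these zones. Its edgeR log2 change was 0.13 ± 0.39 (adjusted p = 0.788), with the sign below 0 under DESeq2 size factors and total UMIs alone (-0.04 and -0.73).

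**Figure D4:**
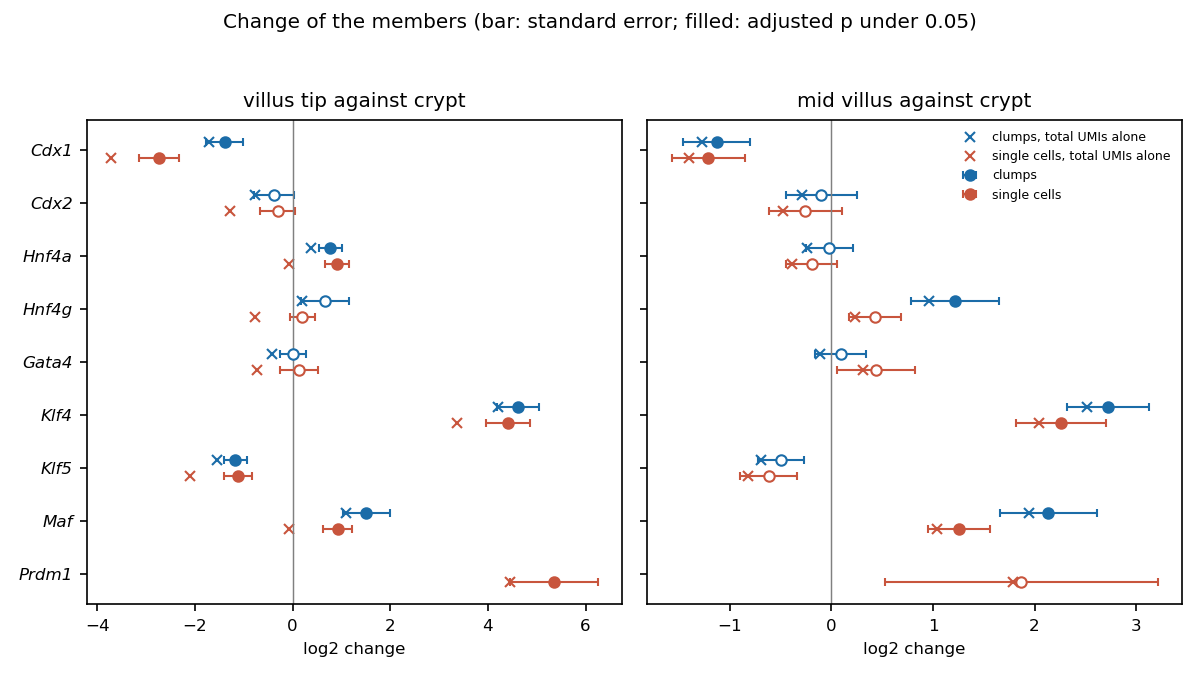
Log2 change of each transcription factor on the edgeR scale (x axis; circles with standard errors, filled where the adjusted p is under 0.05) from crypt to villus tip and from crypt to mid villus, in clumps and in single enterocyte-like cells, with crosses for total UMIs alone. Klf4, Cdx1 and Klf5 keep their side of 0 at the tip under both scalings in both assays, while Hnf4a and Maf drop to near 0 in single cells on total UMIs alone.

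Across cell types, single cells were assigned by marker sums that do not hold the 9 genes, and enterocytes of all zones were taken as the reference. Most enteroendocrine and tuft cells came from mouse 2 (220 of 250 and 121 of 144 cells). Shares of types depend on these gates, and in the other mice these 2 types rest on 6 to 17 cells each. With TMM factors the median of all genes moved by -0.31 in goblet, -0.14 in enteroendocrine, -0.16 in tuft cells and 0.20 in lymphocytes, and with total UMIs alone by 0.40, 1.32, 1.10 and 1.58. The share of calls that were higher than in enterocytes went with this from 34.3 to 71.6% in goblet, 39.2 to 88.0% in enteroendocrine, 43.6 to 83.6% in tuft cells and 54.7 to 80.8% in lymphocytes, where it was 26.0% with DESeq2 size factors. Paneth cells came from mice 2 and 3 alone (87 and 5 cells) and were not compared. Gata4 was under the filter on low counts in each of these comparisons and was at 9.21, 34.4, 38.4 and 40.8 CPM in the enterocytes of mice 1 to 4. Lymphocytes of the 4 mice together held 4 UMIs of Gata4. With no filter its edgeR log2 difference from enterocytes was -4.47 (adjusted p = 1.67e-08) in lymphocytes, and with DESeq2 -5.77 (adjusted p = 3.04e-07). In goblet cells it was -0.88 (adjusted p = 0.582) with no filter, in enteroendocrine cells -1.30 (adjusted p = 0.18) and in tuft cells -1.71 (adjusted p = 0.137), and DESeq2 passed none of these 3 either (adjusted p from 0.221 to 0.546).

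Maf and Hnf4g passed as lower in goblet, enteroendocrine and tuft cells than in enterocytes on the edgeR scale. Maf was at 101, 281, 173 and 228 CPM in the enterocytes of mice 1 to 4, 94.9, 41.1, 27.0 and 39.4 CPM in goblet cells and 0, 6.64, 0 and 0 CPM in enteroendocrine cells. In tuft cells of mice 1 to 3 Maf was at 38.9, 3.39 and 0 CPM. No value of another epithelial type reached an enterocyte value. On the edgeR log2 scale Maf changed by -2.66 ± 0.63 (adjusted p = 0.000895) in goblet, -6.45 ± 0.96 (adjusted p = 3.87e-08) in enteroendocrine and -5.49 ± 0.97 (adjusted p = 3.11e-06) in tuft cells. The enteroendocrine and tuft values rest on 3 UMIs of Maf each, so the size of these changes is near the floor. Each of the 3 calls held on total UMIs alone. Without mouse 2 the goblet and tuft calls were lost, -2.20 (adjusted p = 0.11) and -3.71 (adjusted p = 0.0557). Hnf4g was at 48.4, 69.9, 96.3 and 82.8 CPM in enterocytes against 14.6, 0, 22.5 and 39.4 CPM in goblet cells, with an edgeR log2 change of -3.16 ± 0.66 (adjusted p = 0.000156). In enteroendocrine and tuft cells Hnf4g changed by -3.03 ± 0.72 (adjusted p = 0.000489) and -3.04 ± 0.77 (adjusted p = 0.00119), on 11 and 7 UMIs. Its levels there were 60.8, 17.7, 0 and 88.5 CPM in enteroendocrine cells of mice 1 to 4 and 58.3, 13.6 and 0 CPM in tuft cells of mice 1 to 3, which overlapped the enterocyte levels. They were above the enterocyte level of the same mouse in 2 of 4 and in 1 of 3 mice. On total UMIs alone these 2 calls were lost, -1.49 (adjusted p = 0.0864) and -1.71 (adjusted p = 0.0758).

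Cdx1 went the other way. It was at 3.84, 11.8, 16.1 and 25.8 CPM in enterocytes, 14.6, 70.4, 94.5 and 433 CPM in goblet cells and, in mice 1 to 3, 233, 271 and 185 CPM in tuft cells. The tuft values did not overlap the enterocyte values, and the goblet values spread from 2 UMIs in mouse 1 to 11 UMIs among 25405 in mouse 4. On the edgeR log2 scale Cdx1 was higher by 2.74 ± 0.59 (adjusted p = 0.000133) in tuft cells, under all 11 alternatives. It was higher by 1.87 ± 0.58 (adjusted p = 0.0146) in goblet cells. Cdx1 passed the filter on low counts through its goblet, enteroendocrine and tuft sums alone, where it is high. The filtered calls in these types thus support nothing on their own. With no filter edgeR gave 2.64 (adjusted p = 0.000766) in tuft and 1.90 (adjusted p = 0.0412) in goblet cells. The goblet call was lost without mouse 2, 2.03 (adjusted p = 0.119), without mouse 3, 1.98 (adjusted p = 0.06), or without mouse 4, 1.84 (adjusted p = 0.0748). In enteroendocrine cells, at 243, 79.7, 57.2 and 0 CPM, its log2 change was 1.34 ± 0.63 (adjusted p = 0.1), and it passed on total UMIs alone, 2.86 (adjusted p = 0.00175), and without mouse 4, 1.94 (adjusted p = 0.0417). Since Cdx1 was higher in crypt than in tip enterocytes, the mix of zones among the enterocytes bears on this reference, and its part was not tested.

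Of the 8 members tested, 3 passed in goblet cells (Cdx1 higher, Hnf4g and Maf lower), where 16.1% of all 6240 genes did, 5.51% higher and 10.6% lower. In tuft cells 4 passed (Cdx1 higher, Hnf4g, Maf and Prdm1 lower), where 21.4% of all genes did, 9.33% higher and 12.1% lower. Cdx1 entered these tests through its high sums alone, as said above. In enteroendocrine cells 6 passed (Hnf4a, Hnf4g, Klf4, Klf5, Maf and Prdm1, all lower), where 29.4% did, 11.5% higher and 17.9% lower. In lymphocytes 7 passed (all but Prdm1, all lower), where 54.9% did, 30% higher and 24.9% lower. Klf4 was at 349, 288, 117 and 304 CPM in enterocytes and 533, 622, 356 and 472 CPM in goblet cells, higher in goblet cells in 4 of 4 mice with no overlap. The edgeR log2 change of Klf4 in goblet cells was nonetheless -0.14 ± 0.62 (adjusted p = 0.928), and 0.91 (adjusted p = 0.282) on total UMIs alone, so no direction is read. In enteroendocrine cells Klf4 was at 0, 75.3, 172 and 177 CPM, lower in 3 of 4 mice, with a log2 change of -3.58 ± 0.77 (adjusted p = 0.000108) that was lost on total UMIs alone, -1.59 (adjusted p = 0.0601).

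Klf5 was at 34.6, 104, 83.0 and 107 CPM in enterocytes and, in mice 1 to 3, 272, 224 and 185 CPM in tuft cells, which did not overlap. Its edgeR log2 change in tuft cells was 0.13 ± 0.59 (adjusted p = 0.936) and 1.52 (adjusted p = 0.0265) on total UMIs alone. In enteroendocrine cells Klf5 was at 60.8, 99.6, 0 and 0 CPM, overlapping the enterocytes. Its change there of -1.70 ± 0.62 (adjusted p = 0.0284) was lost without mouse 2, -2.60 (adjusted p = 0.104), mouse 3, -1.29 (adjusted p = 0.19), or mouse 4, -1.47 (adjusted p = 0.122). Total UMIs alone, -0.19 (adjusted p = 0.809), no filter, -1.64 (adjusted p = 0.0793), and clusters in place of marker sums, -1.42 (adjusted p = 0.0564), also ended it. With the replicate block Klf5 passed in goblet cells as well, -1.63 (adjusted p = 0.0142), as it did without mouse 1, -1.72 (adjusted p = 0.016), and with marker sums of at least 20 UMIs, -1.52 (adjusted p = 0.046), where Prdm1 passed too, -2.30 (adjusted p = 0.041). Klf4 in tuft cells passed with the replicate block, -2.02 (adjusted p = 0.0127), with DESeq2 size factors, -2.22 (adjusted p = 0.0494), and with clusters in place of marker sums, -1.76 (adjusted p = 0.0448). Hnf4a was at 151, 154, 137 and 197 CPM in enterocytes, 263, 217, 203 and 197 CPM in goblet cells and 122, 159, 172 and 88.5 CPM in enteroendocrine cells. In tuft cells of mice 1 to 3 Hnf4a was at 175, 149 and 308 CPM. These levels overlapped those of enterocytes, and in enteroendocrine cells they were lower in 2 of 4 mice. Its enteroendocrine change, -1.92 ± 0.64 (adjusted p = 0.0141) on the edgeR log2 scale, was lost when any 1 mouse was left out (log2 values of -2.08 to -1.35, adjusted p of 0.0636 to 0.0871) and with no filter, -1.90 (adjusted p = 0.0534), and was -0.12 (adjusted p = 1) on total UMIs alone. Cdx2 passed in none of the epithelial types, with edgeR log2 changes of -0.13 ± 0.55 (adjusted p = 0.923) in goblet, -0.45 ± 0.61 (adjusted p = 0.634) in enteroendocrine and -1.28 ± 0.71 (adjusted p = 0.215) in tuft cells.

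Lymphocytes served as cells in which most of these genes should be near 0. Hnf4a was there at 0, 14.1, 8.50 and 9.30 CPM in mice 1 to 4, Hnf4g at 0, 0, 3.40 and 0 CPM and Cdx2 at 0, 1.41, 1.70 and 4.65 CPM. Their median cell in the lymphocyte-like cluster held 863 UMIs, against 2864.5 UMIs in the enterocyte-like cluster. The edgeR log2 changes of the 7 lower members ran from -6.68 (Hnf4g) to -3.49 (Cdx1). Prdm1 was at 0, 60.7, 68.0 and 79.1 CPM in lymphocytes (mouse 1 held 7 such cells) and at 23.8, 15.4, 5.58 and 19.2 CPM in enterocytes. Its edgeR log2 change was 0.44 ± 0.50 (adjusted p = 0.468), turned in sign with DESeq2 size factors, -1.15 (adjusted p = 0.143), and passed on total UMIs alone, 2.03 (adjusted p = 0.000377). Without mouse 1 it was 1.10 (adjusted p = 0.0164) and passed as well. Among cell types Prdm1 passed the filter on low counts through its lymphocyte sums alone, so both passes support nothing. With no filter edgeR gave 0.54 (adjusted p = 0.422). In enteroendocrine cells Prdm1 had 0 UMIs of 513358, and in tuft cells 0 UMIs of 362418. Against its pooled level of 16 CPM in enterocytes, and taking 3 UMIs over the group as the floor, it was at least 2.74-fold lower in enteroendocrine and at least 1.93-fold lower in tuft cells. In the cluster of 392 cells led by immunoglobulin and hemoglobin genes, which was left unnamed, Prdm1 averaged 43.9 ± 31.7 (SD, n = 4) CPM.

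**Figure D5:**
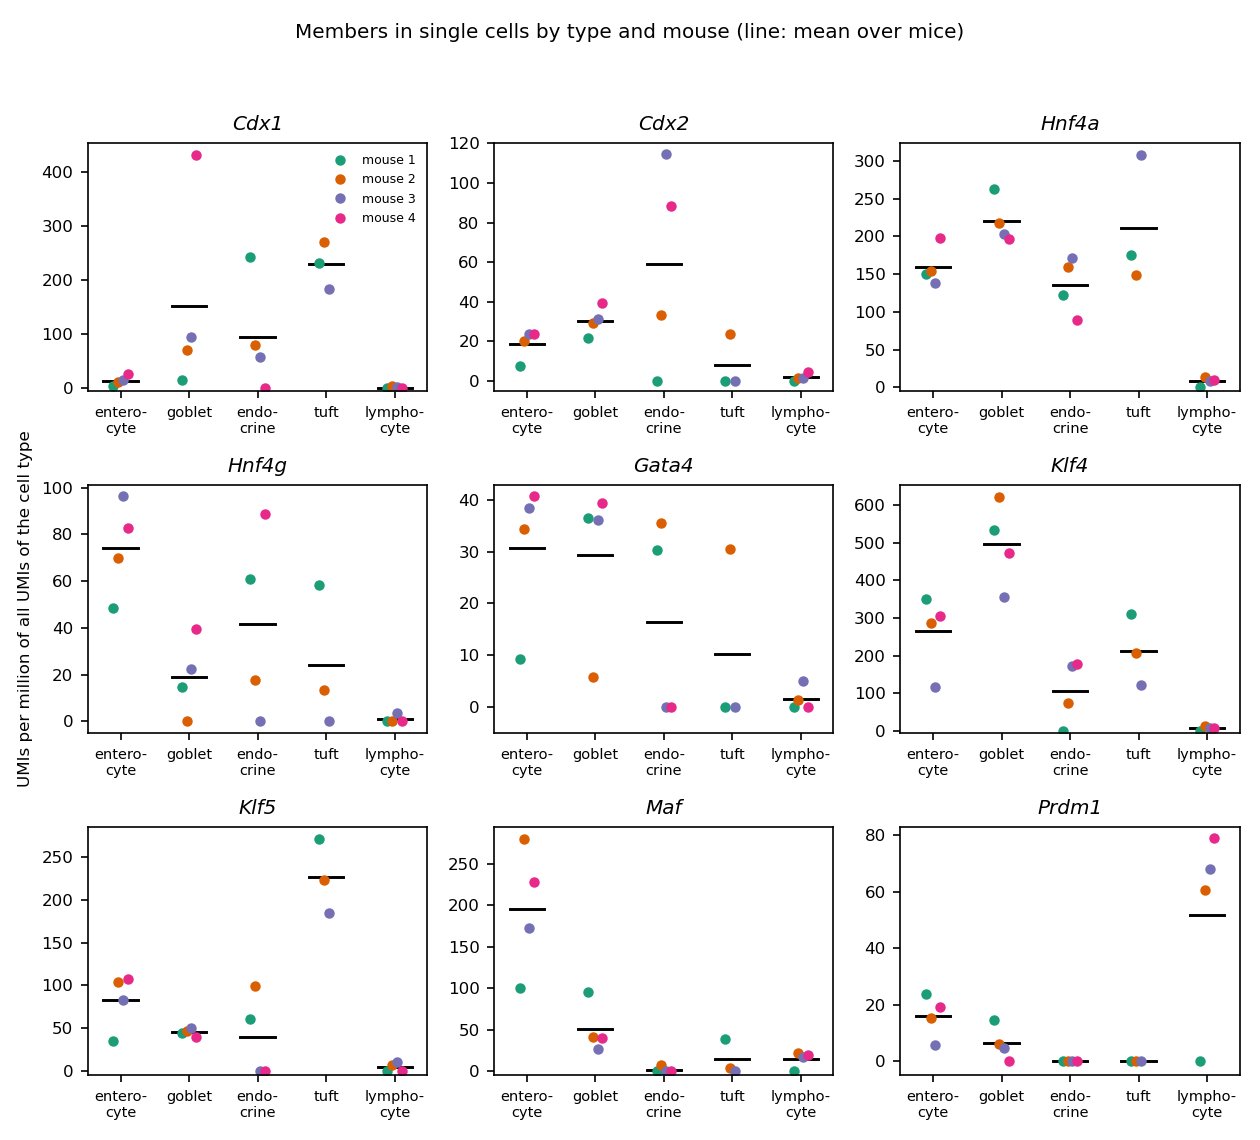
Levels of the 9 transcription factors in single cells by type (x axis), in CPM of the type in that mouse, with 1 point per mouse and bars for the mean over mice. The means of Maf and Hnf4g are highest in enterocytes, Cdx1 is highest in tuft cells of mice 2 and 3 and in goblet cells of mouse 4, and Prdm1 is at 0 in enteroendocrine and tuft cells.

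Among 50 other transcription factor genes of the intestine, listed by their known roles, 33 could be tested in clumps besides 4 that are landmarks. From crypt to tip 12 of the 33 rose, 3 fell and 18 did not pass, with a median log2 change of 0.51 against -0.07 over all genes tested. Of all genes tested 24.5% were higher and 29.9% lower. Among those that rose most were Fosl2, an AP-1 subunit (2.61), Tcf7l2, the effector of Wnt signals (1.79), and Nr1i3, a xenobiotic receptor (1.66), all on the edgeR log2 scale. Ehf, an epithelial ETS factor (-4.71), Hes1, the Notch target (-1.74), and Nr1h4, the bile acid receptor (-1.15), were the 3 that fell. In single cells 12 of 27 of the list rose to the tip and 15 did not pass, where 29.5% of all genes were higher and 29.3% lower. From crypt to mid villus 4 rose and 1 fell, where 11.3% of all genes were higher and 17.6% lower, so the share that rose is near the background. With total UMIs alone 7 rose and 7 fell to the tip in clumps, with a median of 0.13 against -0.49 over all genes. In single cells the median was 0.69 against 0.11 over all genes with TMM factors. With total UMIs alone 4 rose and 9 fell there, and it was -0.25 against -0.87.

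Of 20 known enterocyte genes under these factors, 2 are landmarks and 18 could be tested. From crypt to tip 17 of the 18 rose in clumps and 1 did not pass, with a median log2 change of 1.95 against -0.07 over all genes. Of all genes tested there 24.5% were higher and 29.9% lower. Apoc3 (5.16, 35.8-fold), Apoa1 (4.73) and Apob (4.46), genes of chylomicron assembly, changed most. With total UMIs alone 14 of the 18 still rose to the tip in clumps and none fell. In single cells 14 of the 18 rose to the tip and 1 fell (median 1.38), where 29.5% of all genes were higher and 29.3% lower. With total UMIs alone 7 rose and 2 fell there (median 0.39 against -0.87 over all genes). In clumps 17 of the 18 had also risen from crypt to mid villus (median 2.02), where 20.2% of all genes were higher. From mid villus to tip 4 rose and 1 fell (median 0.26), where 6.44% of all genes were higher and 8.3% lower. In goblet, enteroendocrine, tuft cells and lymphocytes 14, 17, 12 and 18 of the 18 were lower than in enterocytes, and with total UMIs alone 10, 13, 11 and 18 were. Of all genes 10.6, 17.9, 12.1 and 24.9% were lower there with TMM factors. Enterocytes were picked by marker UMIs that include those of Apoa1 and Apoc3. The counts across cell types were thus partly fixed in advance and support nothing. Of 4 genes of the ileum 2 could be tested in clumps, and 1 of them, Nr1h4, fell to the tip.

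Over the 15 sums of clumps, the genes whose log2 CPM (1 CPM added) ran most like each member were taken from 6984 genes outside the landmarks, as a description by Pearson's r. The 15 points are 3 zones of 5 mice and share depth and zone. The most alike were Ccnd1 (0.978) and Mta1 (0.971) for Cdx1, Ube2z (0.954) and Aadac (0.925) for Cdx2, Trib1 (0.873) and Cerk (0.871) for Hnf4a, and Ppargc1a (0.904) and Ap2a2 (0.892) for Hnf4g. For Gata4 they were Rnf40 (0.930) and Snx17 (0.897), for Klf4 Hspa12a (0.982) and Nuak2 (0.981), for Klf5 Psma7 (0.981) and Serbp1 (0.972), for Maf Aspa (0.969) and Mpp1 (0.966), and for Prdm1 Nfat5 (0.884) and Ccdc120 (0.861). Among the members themselves the highest r was that of Cdx1 and Klf5 (0.856), followed by Cdx2 and Gata4 (0.751), and the lowest was that of Klf5 and Prdm1 (-0.80).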

How the data were processed

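Clumps and single cells of the jejunum were profiled by plate-based MARS-seq. The authors converted reads (bcl2fastq 2.15.0.4, per the labels), aligned them to the mouse genome GRCm38 with STAR through the zUMIs package and counted UMIs on the sense strand. The deposited tables hold whole UMI counts per gene and well, not normalized, for 17162 clump wells and 16850 single-cell wells, and all wells were matched to a labelled plate. The same 384 well barcodes recur on every plate, so wells were told apart by plate.

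Of 15626 clump wells of mice 1 to 5, 6004 had more than 500 UMIs, 200 genes or more and a mitochondrial share of up to 30%. Leaving out the 2% poorest in landmark UMIs gave 5883 clumps. Landmark genes of crypt, mid villus and tip, taken as shares of the landmark UMIs of a clump and divided by the highest share of each gene, gave the zone by the best correlation. Clumps of mouse 6 carried no size class of the other plates and entered no comparison. Among single cells, 5199 had 150 to 1500 genes, 200 to 7000 UMIs and a mitochondrial share of up to 40%. These were clustered without the 9 genes (scanpy 1.11.5, Leiden resolution 0.1, 2000 variable genes, 25 components, 20 neighbours). Cell types were also assigned by marker UMIs, with at least 10 of the best list, and enterocytes by at least 10 enterocyte marker UMIs with under 3 of each other list. Doublets were not called, and wells over 7000 UMIs were left out.

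UMIs were summed per mouse and zone or type where at least 5 wells were present. Sums were tested with edgeR 4.0.16 (R 4.3.3; filterByExpr, TMM factors, quasi-likelihood test, all zones or types in one fit), with Benjamini-Hochberg adjustment over all genes and a threshold of 0.05; intervals are 95% and use the degrees of freedom of the test. Landmark genes were left out of all counts of genes. Ratios of UMIs (1 UMI added) were compared with an exact permutation test in scipy 1.17.1. DESeq2 1.42.0, its size factors, total UMIs alone, no filter, leaving out each mouse, the mouse as a block, other zone rules, depths and cell sets were run as alternatives; zones scaled to all UMIs, and total UMIs alone for cell types, were chosen after seeing the data. Tested on simulated counts of 6289 genes for tip against crypt in clumps, 11.4% of 2-fold and 68.1% of 4-fold changes were recovered and 0.0491% of unchanged genes were called.

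The same mice gave each zone, so mouse numbers pair the sums: deviations of same-numbered clump sums from their zone means correlated by 0.17 to 0.55 in 15 of 15 pairs. Those of single-cell zone sums correlated by 0.09 to 0.41 over 10 pairs, and those of cell types by -0.06 to 0.51 over 46 pairs. The 9 genes, the gene lists and the tests were chosen with earlier results of these data known. All 9 genes are described. Of the other transcription factors up to 4 with the largest rise and up to 4 with the largest fall past the threshold from crypt to tip in clumps are named, of the enterocyte genes the 3 with the largest change, and for each member the 2 genes most alike. A result of 1 other gene that this rule names is not reported here. Intervals, floors and p-values cover these wells and mice alone, and floors cover counting error only.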

Additional observations from a re-analysis of the deposited data

Results flagged for a closer look

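Of 80 groups of 4 or 5 mice tested for a mouse far from the others, 6 had one, where chance gives about 1 in 20 groups. In single enterocyte-like cells these were Cdx1 in the mid villus of mouse 4 (45.0 CPM), Prdm1 in the mid villus of mouse 1 (31.4 CPM, on 4 UMIs) and Prdm1 at the tip of mouse 4 (39.1 CPM). Among cell types they were Hnf4g in lymphocytes of mouse 3 (3.40 CPM), Gata4 in goblet cells of mouse 2 (5.87 CPM) and Maf in enteroendocrine cells of mouse 2 (6.64 CPM). The values in lymphocytes and enteroendocrine cells are single libraries above 0 where the other 3 are at 0. None of the 6 was in the sums of clumps.

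Mouse 6 gave 278 further clumps, on 4 plates labelled h2n, that no comparison used. All 9 genes were above the level that 3 UMIs among its 1243705 allow (2.41 CPM). Cdx1 was at 50.7 CPM, Cdx2 at 50.7 CPM, Hnf4a at 227 CPM, Hnf4g at 34.6 CPM and Gata4 at 70.8 CPM. Klf4 was at 146 CPM, Klf5 at 187 CPM, Maf at 133 CPM and Prdm1 at 5.63 CPM. These are values over all clumps of that mouse, with no zone and no control.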

How the results depend on the processing

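Of the recomputed values of the 9 genes 807 kept their direction and side of the threshold, 56 lost the threshold, 25 passed it and 55 turned in sign. Of the counts 197 stayed within 1.5 times and 41 did not, and of the ratios 35 kept direction and side. From crypt to tip in clumps Klf4, Klf5 and Cdx1 passed under each alternative run. The cause of the changes was not tested.

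Genes called between crypt and tip in clumps (3796) came to 2371 in pairs only and 1355 in clumps thinned to 500 UMIs, and the members called (5) to 3 with total UMIs alone. Between crypt and mid villus 2968 genes came to 1490 in pairs only, 1167 when thinned and 1863 to 3285 without 1 mouse, and the members called (4) to 2 when thinned. Between mid villus and tip 1030 genes came to 595 with no filter, 2112 with the replicate block, 496 in pairs only, 277 when thinned, 374 with zones by the highest mean and 357 to 1182 without 1 mouse. The 2 members called there came to 1 with total UMIs alone, in pairs only, when thinned, in clumps over 1000 UMIs and with zones by the highest mean, to 4 with the replicate block and with DESeq2, and to 1 to 3 without 1 mouse. In single cells 1338 genes called between crypt and mid villus came to 890 to 1362 without 1 mouse and the 3 members to 1 to 3. Among cell types, leaving out 1 mouse gave 163 to 1081 genes in goblet cells (1003), 283 to 1744 in enteroendocrine cells (1835), 208 to 1297 in tuft cells (1336) and 891 to 3406 in lymphocytes (3428). Members called then came to 0 to 4 in goblet, 2 to 5 in enteroendocrine and 1 to 4 in tuft cells. The goblet count of 0 by edgeR came without mouse 2, where 5 members were tested, 2 had an unadjusted p under 0.05 and the smallest adjusted p was 0.11. With marker sums of at least 20 UMIs 5 members passed in goblet cells, with total UMIs alone 3 in enteroendocrine cells, and the genes called came to 2034 in tuft cells with total UMIs alone and, with no filter, to 2961 in enteroendocrine cells and 6450 in lymphocytes.

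The log2 ratio of Klf4 to Klf5 stayed at 5.67 (tip) and 3.18 (mid villus) with the replicate block and at 5.26 to 5.90 and 2.97 to 3.35 without 1 mouse, where neither passed after adjustment. The smallest exact permutation p is 0.0625 with the block, which cannot pass, and 0.0286 without 1 mouse. Cdx1 to Cdx2 at the tip (-0.77) lay between -1.36 and -0.50 without 1 mouse. For Cdx1 to Cdx2 in the mid villus -1.21 in pairs only and -0.94 with zones by the highest mean passed, and for Hnf4g to Hnf4a 1.89 and 1.52. Hnf4g to Hnf4a at the tip (0.07) turned to -0.02 with 0.5 UMIs added, lay between -0.06 and 0.27 without 1 mouse and was 0.64 in pairs only and 0.79 with zones by the highest mean, none of which passed.

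The gene values that turned were mostly near 0. Gata4 from crypt to tip in clumps (0.00) came to -0.32 with size factors, -0.41 with total UMIs alone, -0.01 with no filter and with few UMIs of other types, -0.27 in pairs only, -0.09 with zones by the highest mean, -0.29 with DESeq2 and -0.26 to 0.11 without 1 mouse. Gata4 from crypt to mid villus (0.09) came to -0.23, -0.12, -0.34 in pairs only, -0.09 over 1000 UMIs, -0.02 with few UMIs of other types, -0.03 with zones scaled to all UMIs, -0.24 with DESeq2 and -0.12 to 0.09 without 1 mouse. Gata4 from mid villus to tip (-0.09) came to 0.07 in pairs only, 0.06 thinned, 0.14 over 1000 UMIs, 0.01 with few UMIs of other types, 0.05 with zones scaled to all UMIs and -0.25 to 0.07 without 1 mouse. Cdx2 turned to 0.00 from crypt to mid villus with zones scaled to all UMIs, and from mid villus to tip without mice 1 or 2 (-0.60 to 0.07 without 1 mouse). Hnf4a from crypt to mid villus turned to 0.04 with no filter and 0.07 thinned, and Cdx1 from mid villus to tip to 0.09 with zones by the highest mean. In single cells from crypt to tip total UMIs alone gave -0.07 for Hnf4a, -0.78 for Hnf4g, -0.73 for Gata4 and -0.07 for Maf, size factors gave -0.04 for Gata4, and leaving out 1 mouse gave -0.11 to 0.34 for Hnf4g and -0.28 to 0.79 for Gata4. From crypt to mid villus no filter gave 0.05 for Cdx2 and 0.09 for Hnf4a, and cells by low marker sums 0.19 for Hnf4a. With total UMIs alone goblet cells gave 0.60 for Cdx2, 0.47 for Hnf4a and 0.91 for Klf4 (-0.49 to 0.30 without 1 mouse), enteroendocrine cells 1.08 for Cdx2 and tuft cells 0.29 for Hnf4a. Klf5 in tuft cells turned to -0.08 with the replicate block and lay between -0.05 and 0.60 without 1 mouse, and Prdm1 in lymphocytes to -1.15 with size factors and -1.47 with DESeq2. The replicate block changed no call of a member beyond those of Klf5, Maf and Klf4 given above.

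Depth limits the scarce genes: Prdm1 at the crypt, and Hnf4g, Gata4, Maf and Prdm1 in enteroendocrine and tuft cells, rest on few UMIs. In simulated counts 2-fold changes were mostly missed. Crypt clumps were deeper and larger than tip clumps, with mouse 4 holding most crypt UMIs, and single-cell types came through antibody gates.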

Other observations

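Markers of the remaining cell types were also summed in the clumps. Enteroendocrine markers (16 genes) summed to 104 to 901 CPM in the crypt of the 5 mice and 53.9 to 142 CPM at the tip, and tuft markers (13 genes) to 7.56 to 54.8 CPM and 13.0 to 89.7 CPM. Paneth cell markers (9 genes), of the cells at the crypt base, ranged from 86.9 to 21046.5 CPM in the crypt (median 8982) and from 100.4 to 1269.9 CPM at the tip (median 781). Stromal markers (8 genes) summed to 0.397 to 40.3 CPM and 0 to 39.1 CPM, and the 3 hemoglobin genes to 0 to 0.477 CPM in the crypt and 0 at the tip. These ranges overlap between the ends of the axis in every list, and no member was set against them.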
